A study of Homo sapiens with 24 samples.

Results

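Genes that set how a tumour cell is seen by T cells, NK cells and macrophages were followed in H2052, an established pleural mesothelioma cell line, after transfection with a miR-497-5p mimic. The set held 9 genes, taken by name from the 57500 gene identifiers of the count files. They were the checkpoint ligands CD274 (PD-L1), PDCD1LG2 (PD-L2) and CD276 (B7-H3), the "don't eat me" signal CD47, the adenosine-producing ectoenzyme NT5E (CD73), the HLA class I heavy chains HLA-B, HLA-C and HLA-E, and B2M, the light chain they share. Each symbol matched 1 identifier. The cells received a 3′-biotinylated miR-497-5p mimic (miR-497-5p-RE) or a biotinylated scrambled, non-targeting mimic (Control), both at 20 nM with Lipofectamine RNAiMAX, and were collected at 12 or 72 h. From each culture condition the study made RNA-seq libraries of the input RNA and pull-down libraries of RNA captured from cytoplasmic extract on streptavidin beads, with 3 libraries in each of the 8 groups. All groups share 1 cell line, the transfection reagent and the biotin tag, and no group was left untransfected. The labels do not say whether the 3 libraries of a group came from separate cultures, so the p-values measure the spread between libraries, which may be technical.

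A class I heavy chain reaches the cell surface only after it pairs with beta-2-microglobulin and is loaded with a peptide that the proteasome cut and the TAP transporter carried into the endoplasmic reticulum. T cells, among other cells, read HLA-B and HLA-C. HLA-E shows peptides from the leaders of other class I chains to the inhibitory NK receptor CD94/NKG2A. PD-L1 and PD-L2 bind PD-1 on T cells, CD47 binds SIRP-alpha on macrophages, and CD73 turns AMP into immunosuppressive adenosine. A miRNA pairs through its seed, bases 2 to 8, with sites in the 3′ UTR of target mRNAs, and miR-497-5p carries the seed of the miR-15/16 family.

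The mimic's sequence and its seed matches are shown first because the pull-down is about RNAs that pair with it. RefSeq (GRCh38.p14) places mature miR-497-5p at chr17:7017979-7017999 on the minus strand, and its seed is in capitals.
miR-497-5p: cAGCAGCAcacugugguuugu
A search of 1 annotated 3′ UTR per gene (GENCODE, GRCh38) found 4 seed matches, in CD274, CD276 and CD47. The words searched on the mRNA strand were TGCTGCTA (8mer), TGCTGCT (7mer-m8), GCTGCTA (7mer-A1) and GCTGCT (6mer), and the capitals below mark the match.
CD274 7mer-m8: caaactaaactTGCTGCTtaatgatttgct
CD276 7mer-A1: aggaccagggaGCTGCTAcccctccctaca
CD47 6mer: ttcatctgtgtaGCTGCTcttttgtctctt
CD47 8mer: gctatttctatTGCTGCTAcagcagaccac
The CD274 match lies on the plus strand at chr9:5468429-5468435 and the CD276 match on the plus strand at chr15:73712973-73712979. The CD47 matches lie on the minus strand at chr3:108044715-108044720 (6mer) and chr3:108043271-108043278 (8mer). The count files end CD47 at base 108043298, so the 8mer lies outside the exons in which its reads were counted. No match was found in the searched UTRs of PDCD1LG2, NT5E, HLA-B, HLA-C, HLA-E or B2M. Of 19248 genes searched in the same way, 22.9% held an 8mer or 7mer-m8 and 42.6% held any of these words. Among UTRs within 20% of the length of CD274's (2704 bases) the share with an 8mer or 7mer-m8 was 34.1%, and for CD47's (4197 bases) it was 44.9%. A match describes the letters only and does not show a site in use.

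Counted reads per library ran from 21561816 to 30602007 in RNA-seq and from 8262425 to 30650982 in pull-down, where the shallowest was miR-497-5p-RE replicate 2 at 72 h. At 72 h both assays had fewer counted reads in every miR-497-5p-RE library than in any Control library. In RNA-seq these were 21561816 to 23597532 against 25535580 to 27595617, and in pull-down 8262425 to 22358295 against 23552252 to 30650982. Of 10 mesothelial and epithelial markers, KRT8, KRT18, KRT19 and VIM, which are not specific to mesothelium, had the most counts. Median counts were 2162.5 for MSLN, 261 for LRRN4, 251 for WT1, 37 for CALB2, 5 for UPK3B and 0 for HP. The 10 markers summed to 3810 to 5915 CPM over the 24 libraries. In RNA-seq at 72 h this sum was 5811 to 5858 CPM in miR-497-5p-RE and 3810 to 3851 CPM in Control. Of 8 markers tested there 4 were called higher and 2 lower, against 27.9% and 29.6% of all genes, with a median log2 change of 0.05. The 11 leukocyte markers summed to 5.51 to 6.53 CPM in miR-497-5p-RE and 2.86 to 3.33 CPM in Control there, where CD68 reached 210, CD3E 188, PTPRC 106 and MS4A1 3 counts at most in any of the 24 libraries. The 7 endothelial markers stayed between 0.58 and 6.31 CPM in all. Squamous epithelial transcripts were also present at 12 h, where their 20 markers summed to 147.6 to 915.9 CPM in RNA-seq with miR-497-5p-RE and to 280.2 to 771.6 CPM with Control. At 72 h this sum was 189.9 to 203.1 CPM with miR-497-5p-RE and 168.5 to 180 CPM with Control. Only 8 to 10 of the 20 had any count in an RNA-seq library there. Median counts over the 24 libraries were highest for KRT10 (2321), SBSN (423) and DSC3 (304), against 38.5 for KRT14 and 14.5 for KRT13. Of the 20, 1 was called higher, 4 lower and 15 not in RNA-seq at 12 h by edgeR, where 7.25% of all genes were higher and 5.3% lower. The cornified-cell gene SPRR3 had 3 to 25 counts in miR-497-5p-RE and 449 to 606 in Control at 12 h in RNA-seq, and CRNN had 0 to 2 against 237 to 321. KRT14 overlapped there, with 164 to 6297 counts in miR-497-5p-RE and 703 to 2928 in Control. In the pull-down at 12 h SPRR3 overlapped too, with 5 to 904 counts in miR-497-5p-RE and 4 to 500 in Control. At 72 h SPRR3 had 0 counts in all 12 libraries. The part of depth and of these markers in the results below was not tested. In bulk libraries, fewer cells of a type and less RNA per cell cannot be told apart.

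Levels per exon length (RPKM, from the scaled counts and the deposited gene length) give the order of the 9 genes in RNA-seq of Control cells at 12 h. B2M stood highest at 99.0 ± 1.64 RPKM, followed by HLA-C at 71.3 ± 1.73, HLA-B at 52.5 ± 1.40, HLA-E at 30.9 ± 0.36, CD47 at 14.4 ± 0.44, CD276 at 11.1 ± 0.38 and NT5E at 7.32 ± 0.07 (SD, n = 3 each). PDCD1LG2 (2.63 ± 0.10 RPKM) and CD274 (2.62 ± 0.17 RPKM) closed the order and did not differ beyond their spread. The remaining neighbours were separated by more than their SDs. Mean levels of all 9 genes were lower in Control cells at 72 h than at 12 h, from 0.343 times for HLA-C (61.4 against 178.8 CPM) and 0.364 times for NT5E (12.1 against 33.2 CPM) to 0.808 times for CD47 (91.6 against 113.3 CPM). That difference between the Control times is given as a description and was not tested.

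**Figure D1:**
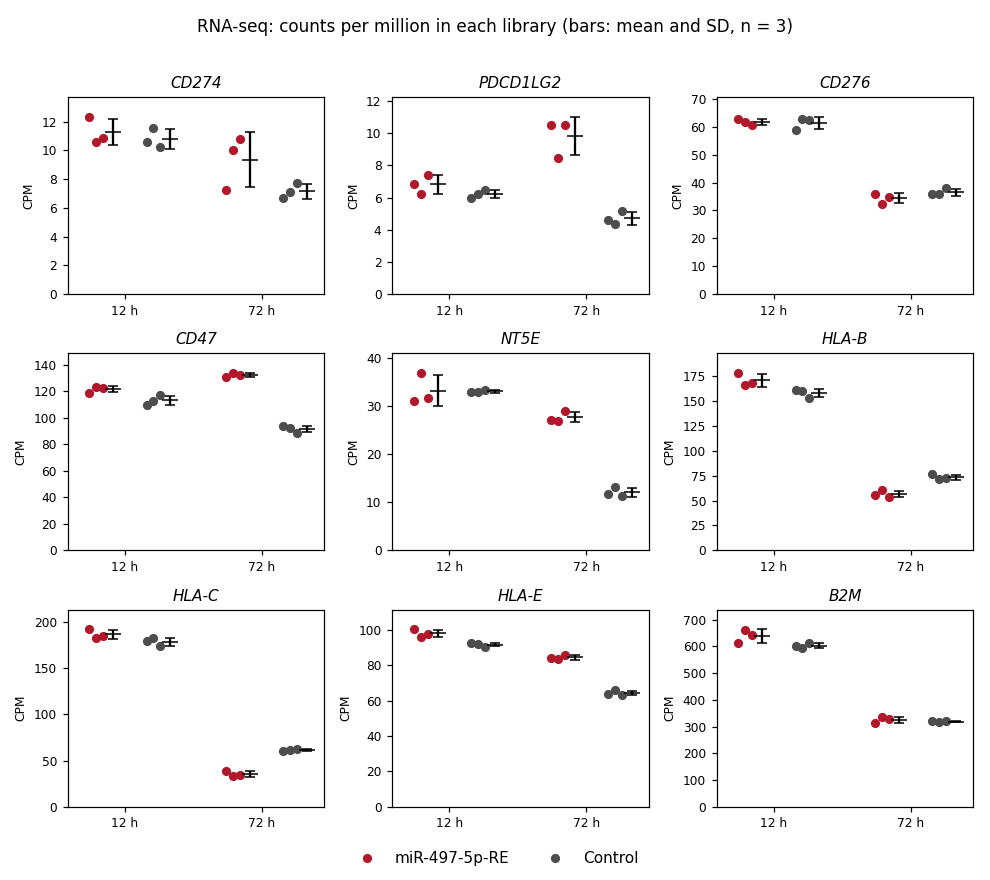
CPM (TMM-scaled within RNA-seq) of the 9 genes in each RNA-seq library, miR-497-5p-RE in red and Control in grey, at 12 and 72 h, with mean and SD (n = 3) beside the points. At 72 h the points of PDCD1LG2, CD47, NT5E and HLA-E lie above Control and those of HLA-B and HLA-C below it.

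At 12 h none of the 9 genes was called different in RNA-seq. Their log2 fold changes (miR-497-5p-RE over Control) ranged from 0.00 for CD276 to 0.13 for PDCD1LG2. The values of CD276, NT5E and CD274 fell below 0 under some of the alternatives. The median was 0.08, against 0.01 over all 17335 genes tested. By edgeR's quasi-likelihood test with Benjamini-Hochberg adjustment at 0.05, 7.25% of all genes were called higher and 5.3% lower at 12 h. With library-total scaling the split over all genes was 722 higher and 1746 lower, against 1256 and 919. An unadjusted p under 0.05 was reached by 4 of the 9 (CD47, HLA-B, HLA-E and B2M), and DESeq2 called 2 of them. CD47 had 119, 123 and 123 CPM in miR-497-5p-RE and 110.1, 113 and 117 CPM in Control (0.10 ± 0.04 SE, edgeR adjusted p 0.07). HLA-B had 178, 167 and 168 CPM in miR-497-5p-RE and 161, 160.1 and 153 CPM in Control (0.11 ± 0.04, edgeR adjusted p 0.0694). The groups did not overlap for CD47, HLA-B, HLA-C and HLA-E, that is for 4 of 9, where 25.7% of all genes showed this. Leaving out miR-497-5p-RE replicate 1 brought CD47 (0.12) and B2M (0.11) past the threshold, and leaving out replicate 2 brought HLA-B (0.13) past it.

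At 72 h RNA-seq separated the set: 5 of 9 genes were higher in miR-497-5p-RE (PDCD1LG2, NT5E, CD47, HLA-E and CD274), 2 were lower (HLA-C and HLA-B), and CD276 and B2M were not called. Of all genes tested, 27.9% were called higher and 29.6% lower, and the count for the 9 is to be read against that background. Library-total scaling gave 3808 higher and 6137 lower over all genes, against 4835 and 5128. In 6 of the 9 the groups did not overlap, where 63.7% of all genes showed this.

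NT5E, the ectonucleotidase CD73 (ENSG00000135318, chromosome 6, 85449584 to 85495791), had the largest change in the set. Its level was 27.3, 27.0 and 29.0 CPM in miR-497-5p-RE and 11.8, 13.2 and 11.2 CPM in Control. Each miR-497-5p-RE library was more than double any Control library. The log2 fold change was 1.20 ± 0.08 (SE), or 2.3-fold, with an edgeR adjusted p of 1.7e-18. PDCD1LG2, which encodes PD-L2 (ENSG00000197646, chromosome 9, 5510570 to 5571254), had 10.5, 8.46 and 10.5 CPM in miR-497-5p-RE and 4.64, 4.34 and 5.16 CPM in Control. The groups were well apart, and its level was 2.09-fold higher (1.06 ± 0.13, edgeR adjusted p 5.34e-10). CD274, its neighbour on chromosome 9 (ENSG00000120217, 5450503 to 5470566), had 7.21, 10.1 and 10.8 CPM in miR-497-5p-RE and 6.65, 7.07 and 7.70 CPM in Control. Here the groups overlapped, with miR-497-5p-RE replicate 1 inside the Control range. The fit called it higher (0.39 ± 0.12, edgeR adjusted p 0.00497), but without miR-497-5p-RE replicate 3 the change was 0.28 and was no longer called (adjusted p 0.0794, where the alternatives spanned 0.000114 to 0.0794).

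CD47, the ligand of SIRP-alpha (ENSG00000196776, chromosome 3, 108043298 to 108091025), had 131, 134 and 133 CPM in miR-497-5p-RE and 93.8, 92.1 and 88.9 CPM in Control. All 3 miR-497-5p-RE libraries lay within 3 CPM of each other and above Control, and the level was 1.45-fold higher (0.53 ± 0.04, edgeR adjusted p 6.32e-16). CD276, encoding B7-H3 (ENSG00000103855, chromosome 15, 73683966 to 73714518), had 36.1, 32.4 and 35.0 CPM in miR-497-5p-RE and 35.9, 35.8 and 38.1 CPM in Control. These groups overlapped, and the change of -0.09 (95% interval -0.20 to 0.03) was not called (edgeR adjusted p 0.197). Scaling by library totals moved it to -0.19, which was called. Of the 3 genes with a seed match, CD47 and CD274 were higher with miR-497-5p-RE and CD276 was not called.

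Among the class I genes, HLA-C (ENSG00000204525, chromosome 6, 31268749 to 31272130) had the largest fall. It stood at 38.9, 33.4 and 34.1 CPM in miR-497-5p-RE and 59.9, 61.7 and 62.5 CPM in Control. The groups were far apart, and HLA-C was lower by 0.79 ± 0.05 on the log2 scale (0.578 times Control, edgeR adjusted p 5.78e-19). HLA-B (ENSG00000234745, chromosome 6, 31353872 to 31357188) had 55.7, 60.6 and 54.0 CPM in miR-497-5p-RE and 76.4, 71.3 and 72.7 CPM in Control. It was lower by 0.37 ± 0.05 (0.772 times Control, edgeR adjusted p 1.3e-09), with no overlap. HLA-E, the ligand of CD94/NKG2A (ENSG00000204592, chromosome 6, 30489467 to 30494205), went the other way, with 84.3, 83.4 and 86.1 CPM in miR-497-5p-RE and 63.8, 65.9 and 63.5 CPM in Control. It was 1.31-fold higher (0.39 ± 0.04, edgeR adjusted p 5.38e-11), also with no overlap. B2M (ENSG00000166710, chromosome 15, 44711477 to 44718877) had 312, 335 and 328 CPM in miR-497-5p-RE and 319, 316 and 319 CPM in Control. The B2M groups overlapped, and its change of 0.03 (95% interval -0.04 to 0.10, edgeR adjusted p 0.438) was not called. Under library-total scaling B2M was -0.075 and was called (edgeR adjusted p 0.0493, where the alternatives spanned 0.0493 to 1). HLA-B, HLA-C and HLA-E are near-identical in stretches and highly polymorphic, and only uniquely mapped reads were counted against reference alleles. How reads split between class I genes is therefore uncertain. HLA-B also shares 542 exon bases with an antisense gene that had at most 5 counts.

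**Figure D2:**
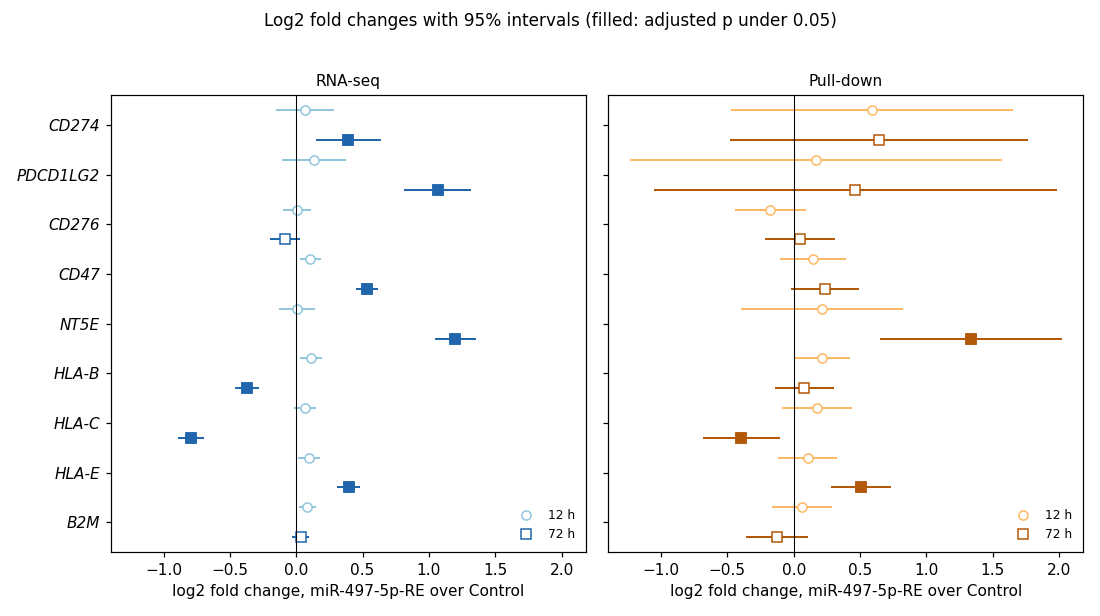
Log2 fold changes (miR-497-5p-RE over Control) of the 9 genes in RNA-seq and in pull-down at 12 and 72 h, with 95% intervals, where filled symbols passed an adjusted p of 0.05. In RNA-seq the 72 h values run from -0.79 (HLA-C) to 1.20 (NT5E), while the 12 h values lie between 0.00 and 0.13.

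The shift between times was tested directly as the 72 h change minus the 12 h change. In RNA-seq 6 of 9 genes passed: PDCD1LG2 (0.93 ± 0.17, adjusted p 1.3e-05), CD47 (0.43 ± 0.06, adjusted p 8.7e-09), NT5E (1.19 ± 0.10, adjusted p 4.85e-14) and HLA-E (0.30 ± 0.06, adjusted p 3.55e-05) were higher, and HLA-B (-0.48 ± 0.06, adjusted p 4.92e-09) and HLA-C (-0.85 ± 0.06, adjusted p 9.78e-16) were lower (edgeR quasi-likelihood). The share called over all genes was 22.5% higher and 26.2% lower. CD274 (0.33 ± 0.16, adjusted p 0.0931) was not called, although leaving out miR-497-5p-RE replicate 1 at 12 h (0.39) or at 72 h (0.50) brought it past the threshold. CD276 and B2M were not called either (-0.09 and -0.05), although library-total scaling brought B2M past the threshold (-0.11).

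**Figure D3:**
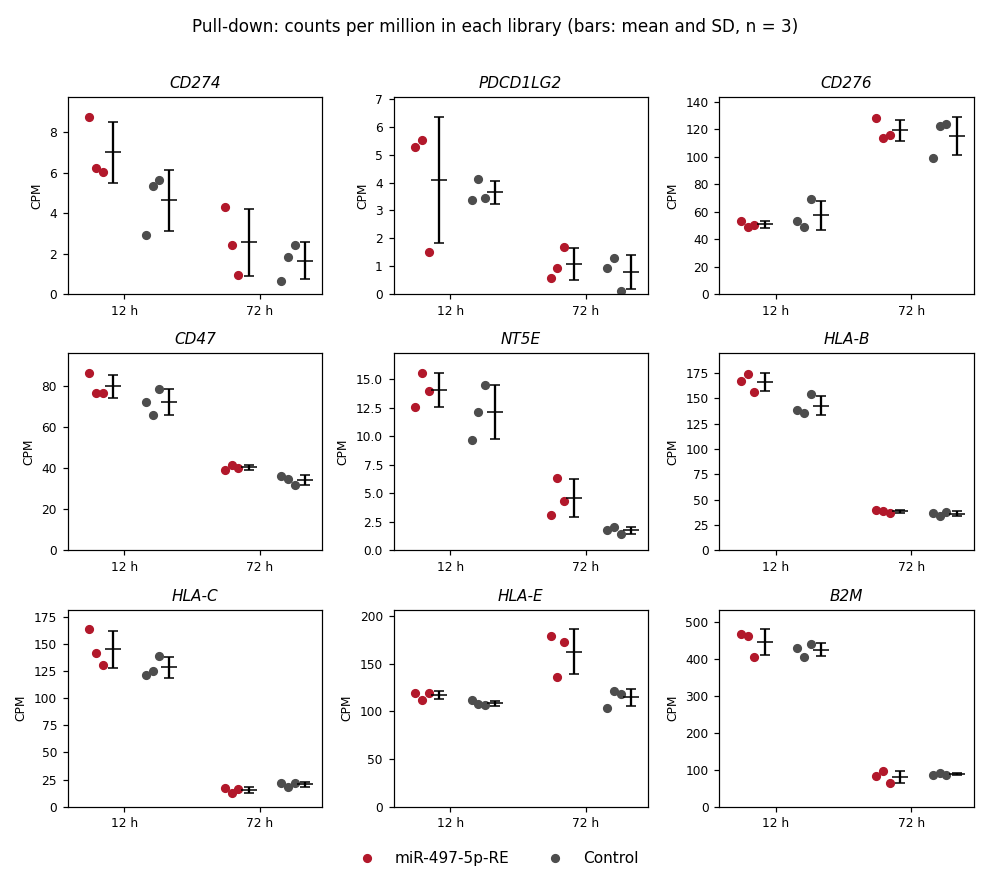
CPM (TMM-scaled within pull-down) of the 9 genes in each pull-down library, miR-497-5p-RE in red and Control in grey, with mean and SD (n = 3). At 72 h NT5E and HLA-E lie above Control and HLA-C below it, while CD274 and PDCD1LG2 are near the low end of detection and overlap.

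The pull-down asks which of these mRNAs were recovered with the biotinylated miR-497-5p mimic more than with the biotinylated scrambled one. At 12 h none of the 9 was called, where 0.326% of all genes were higher and 0.269% lower by edgeR's quasi-likelihood test. Library-total scaling gave 78 higher and 17 lower over all genes and DESeq2 72 higher and 269 lower, against 57 and 47. HLA-B, 1 of the 9, had an unadjusted p under 0.05, and DESeq2 called 0 of them. The groups did not overlap for 3 of 9 (CD274, HLA-B and HLA-E), where 16.4% of all genes showed this. CD274, which carries the 7mer-m8 word, had 8.77, 6.23 and 6.04 CPM in miR-497-5p-RE and 2.92, 5.37 and 5.63 CPM in Control. Those ranges were apart but wide, and the change of 0.59 had a 95% interval from -0.47 to 1.66 (edgeR adjusted p 0.819). CD47, which carries a 6mer and an 8mer, had 86.4, 76.8 and 77.0 CPM in miR-497-5p-RE and 72.3, 66.0 and 78.6 CPM in Control, and these ranges overlapped (0.15, 95% interval -0.10 to 0.40). CD276, with its 7mer-A1, was at 53.3, 48.8 and 50.0 CPM in miR-497-5p-RE and at 53.3, 49.0 and 69.5 CPM in Control (-0.18, 95% interval -0.44 to 0.09).

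At 72 h 3 of 9 genes were called in the pull-down: NT5E and HLA-E were higher, and HLA-C was lower. The share over all genes was 10.2% higher and 12.6% lower, and groups did not overlap for 4 of 9 genes (these and CD47), against 35.5% of all genes. HLA-E had 179, 136 and 172 CPM in miR-497-5p-RE and 104, 121 and 118 CPM in Control, with every miR-497-5p-RE library above Control (0.51 ± 0.11, edgeR adjusted p 0.00102). NT5E had 3.07, 6.35 and 4.30 CPM in miR-497-5p-RE, on 58, 47 and 76 counts, and 1.75, 2.06 and 1.47 CPM in Control, on 35, 53 and 30 counts. It was 2.53-fold higher (1.34 ± 0.33, edgeR adjusted p 0.00398). HLA-C had 17.2, 12.3 and 16.6 CPM in miR-497-5p-RE and 21.6, 17.8 and 22.2 CPM in Control. It was lower by 0.39 ± 0.14 (edgeR adjusted p 0.0469), close to the threshold. Without Control replicate 1 (-0.37) or 3 (-0.34), or without miR-497-5p-RE replicate 2 (-0.28) or 3 (-0.45), HLA-C was no longer called, nor when only the 6 libraries compared entered the fit (-0.40), with DESeq2 size factors (-0.36) or with DESeq2 (-0.36). NT5E and HLA-E, which rose here, have no seed match in the searched UTRs.

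The genes with a seed match were not called in the pull-down at 72 h. CD47 was at 39.3, 41.7 and 40.4 CPM in miR-497-5p-RE and 36.1, 35.0 and 31.8 CPM in Control (0.24, 95% interval -0.02 to 0.49, edgeR adjusted p 0.194). CD276 was at 128, 114 and 116 CPM in miR-497-5p-RE and 99.4, 123 and 124 CPM in Control (0.05, 95% interval -0.22 to 0.31). CD274 rested on 81, 18 and 17 counts in miR-497-5p-RE and 13, 47 and 50 counts in Control, and PDCD1LG2 on 11, 7 and 30 counts in miR-497-5p-RE and 19, 33 and 2 in Control. For PDCD1LG2 the 95% interval of the log2 change ran from -1.05 to 1.98, which includes both 0 and the RNA-seq change. HLA-B (0.08) and B2M (-0.13) were not called.

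The ratio of pull-down to RNA-seq level varied more between genes than between mimics. Each assay was scaled separately, so these ratios of mean CPM are descriptions. At 72 h CD276 had 3.46 times its RNA-seq CPM in the pull-down with miR-497-5p-RE and 3.15 times with Control, and HLA-E had 1.92 times with miR-497-5p-RE and 1.78 times with Control. The other 7 genes had less than their RNA-seq CPM with both mimics, with the lowest ratios at 0.109 times for PDCD1LG2 with miR-497-5p-RE and 0.146 times for NT5E with Control.

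A fit over both assays at each time tested whether the pull-down change exceeded the RNA-seq change. At 12 h none of the 9 was called, none had an unadjusted p under 0.05 and DESeq2 called 0, where 1.34% of all genes were called by edgeR in either direction. At 72 h HLA-B was called higher (0.43 ± 0.11, adjusted p 0.0161) and CD47 lower (-0.32 ± 0.09, adjusted p 0.031) by edgeR's quasi-likelihood test, where 7.46% of all genes were higher and 7.01% lower. Library-total scaling gave 2085 higher and 747 lower over all genes, against 1260 and 1185. HLA-B was thus lower in RNA-seq but not in the pull-down, and CD47 was higher in RNA-seq by more than in the pull-down. Neither call was firm: leaving out any 1 of the 6 RNA-seq libraries ended the CD47 call (-0.29 to -0.33), as did library-total scaling (-0.18) and no filter on low counts (-0.32), and leaving out Control replicate 1 (0.40), miR-497-5p-RE replicate 1 (0.41) or miR-497-5p-RE replicate 3 (0.40) of RNA-seq, or no filter (0.43), ended the HLA-B call. HLA-C (0.38 ± 0.17, adjusted p 0.172) was not called but passed when pull-down miR-497-5p-RE replicate 2 was left out (0.49) or with library-total scaling (0.51). For NT5E the difference was 0.09 (95% interval -0.58 to 0.75) and for HLA-E 0.10 (95% interval -0.15 to 0.34).

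Within the pull-down the 72 h change minus the 12 h change was called for none of the 9, against 12.2% of all genes, although 3 (NT5E, HLA-C and HLA-E) had an unadjusted p under 0.05 and DESeq2 called 2. HLA-C was at -0.57 ± 0.19 (edgeR adjusted p 0.0534), NT5E at 1.12 ± 0.44 (adjusted p 0.108) and HLA-E at 0.40 ± 0.15 (adjusted p 0.0929). HLA-C was called (-0.63 to -0.67) when 12 h Control replicate 3, 12 h miR-497-5p-RE replicate 3, 72 h Control replicate 2 or 72 h miR-497-5p-RE replicate 1 was left out, and HLA-E (0.51) without 72 h miR-497-5p-RE replicate 2.

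**Figure D4:**
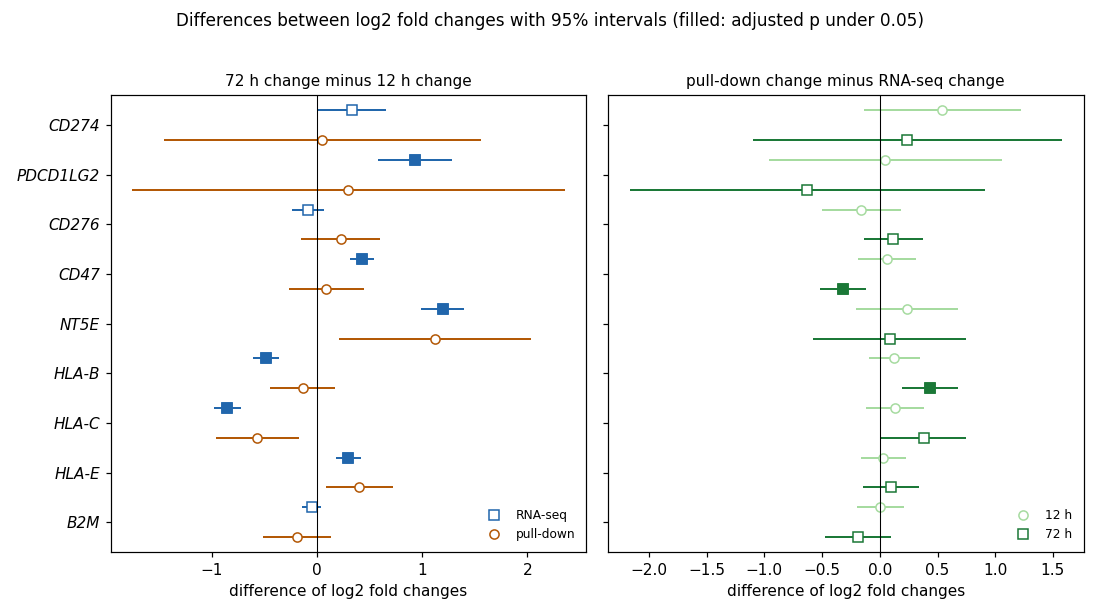
Differences between log2 fold changes of the 9 genes with 95% intervals. The left panel gives 72 h minus 12 h within each assay and the right panel pull-down minus RNA-seq at each time. Filled symbols passed an adjusted p of 0.05: 6 genes over time in RNA-seq, none over time in pull-down, and HLA-B (0.43) and CD47 (-0.32) between assays at 72 h.

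Class I molecules need the machinery that cuts, carries and loads peptides, and 24 genes of that pathway, all tested, are given for comparison. In RNA-seq at 72 h 4 rose and 14 fell, with a median log2 change of -0.29, against 27.9% and 29.6% of all genes and a median of 0.00. PSMB9, an immunoproteasome subunit, was 13.6 ± 1.25 CPM in miR-497-5p-RE and 32.3 ± 1.91 CPM in Control (-1.25 ± 0.07, edgeR adjusted p 1.77e-19). PSME2, a proteasome activator subunit, was 41.6 ± 2.68 CPM in miR-497-5p-RE and 64.9 ± 1.18 CPM in Control (-0.64 ± 0.05, edgeR adjusted p 1.21e-15). On the other side, the trimming peptidase ERAP2 was 93.3 ± 1.95 CPM in miR-497-5p-RE and 48.9 ± 1.08 CPM in Control (0.93 ± 0.05, edgeR adjusted p 1.29e-21), and the chaperone CANX was also higher (0.38 ± 0.03, edgeR adjusted p 1.47e-14). PSME2 was likewise lower in the pull-down at 72 h (-1.05 ± 0.11, edgeR adjusted p 7.45e-08), and CALR had a pull-down change above its RNA-seq change there (0.39 ± 0.06, edgeR adjusted p 0.000317). At 12 h 2 genes rose in RNA-seq and none fell, against 7.25% and 5.3% of all genes. PSMB10, an immunoproteasome subunit, led them (0.45 ± 0.10, edgeR adjusted p 0.00174). The 12 h count was 1 with library-total scaling or no filter on low counts, and 3 with DESeq2. At 72 h, then, 14 of the 24 moved in RNA-seq in the direction of HLA-B and HLA-C, and 4 in that of HLA-E.

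Interferon gamma is a known inducer of class I and PD-L1 genes. Of the 17 genes of that pathway, 11 rose and 2 fell in RNA-seq at 72 h, with a median of 0.34, against 27.9% and 29.6% of all genes. The receptor chain IFNGR2 was 240.5 ± 2.33 CPM in miR-497-5p-RE and 162.5 ± 1.99 CPM in Control (0.57 ± 0.04, edgeR adjusted p 1.14e-17). The interferon-induced GTPase GBP1 was 11.1 ± 0.54 CPM in miR-497-5p-RE and 3.00 ± 0.30 CPM in Control (1.89 ± 0.16, edgeR adjusted p 1.71e-14). JAK1 (0.43 ± 0.05, edgeR adjusted p 4.83e-10) and the phosphatase gene PTPN11 (0.33 ± 0.03, edgeR adjusted p 1.9e-11) also rose, whereas PTPN11 had been lower at 12 h (-0.32 ± 0.03, edgeR adjusted p 2.16e-09). IFNGR2 was higher in the pull-down at 72 h as well (1.03 ± 0.13, edgeR adjusted p 9.41e-07), by more than in RNA-seq (difference 0.45 ± 0.09, edgeR adjusted p 0.00151).

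Proteins that stabilise or degrade PD-L1 or modify CD47 made up a list of 10 genes, of which 9 were tested in RNA-seq. At 72 h 5 rose and 1 fell, against 27.9% and 29.6% of all genes. CMTM6, which protects PD-L1 from degradation, was 196 ± 5.21 CPM in miR-497-5p-RE and 147 ± 1.41 CPM in Control at 72 h (0.42 ± 0.04, edgeR adjusted p 4.6e-13). Its relative CMTM4 was 31.1 ± 0.94 CPM in miR-497-5p-RE and 45.8 ± 1.91 CPM in Control at 12 h (-0.56 ± 0.05, edgeR adjusted p 2.59e-11). CMTM4 and CMTM6 were the 2 genes of the list called at 12 h, both lower, where 5.3% of all genes were lower. STUB1, a ubiquitin ligase that targets PD-L1, fell at 72 h (-0.55 ± 0.05, edgeR adjusted p 4.17e-12), and GSK3B (0.34 ± 0.05, edgeR adjusted p 4.4e-08) and the deubiquitinase COPS5 (0.24 ± 0.04, edgeR adjusted p 7.29e-06) rose. COPS5 was lower in the pull-down at 72 h (-0.54 ± 0.14, edgeR adjusted p 0.00474).

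Of 27 other checkpoint and costimulatory ligands 20 were tested in RNA-seq, and 3 rose and 10 fell at 72 h (median -0.20), against 27.9% and 29.6% of all genes. The OX40 ligand gene TNFSF4 (1.10 ± 0.10, edgeR adjusted p 5.73e-13) and CD24, a ligand of Siglec-10 (1.08 ± 0.12, edgeR adjusted p 1.81e-09), rose. The TIGIT ligand NECTIN2 (-0.70 ± 0.06, edgeR adjusted p 5.5e-12) and the ICOS ligand ICOSLG (-1.83 ± 0.23, edgeR adjusted p 2.43e-09) fell, and NECTIN2 was also lower in the pull-down at 72 h (-0.60 ± 0.10, edgeR adjusted p 5.44e-05). The CD47 ligand THBS1 was the 1 gene of the list called in the pull-down at 12 h (2.14 ± 0.27, edgeR adjusted p 0.00106), where 0.326% of all genes were higher. LGALS3, encoding galectin-3, had a pull-down change below its RNA-seq change at 72 h (difference -1.28 ± 0.24, edgeR adjusted p 0.00117), and CD24 had one above it at 12 h (1.75 ± 0.27, edgeR adjusted p 0.00458). TNFSF9, the 4-1BB ligand gene, was lower at 12 h in RNA-seq (-0.63 ± 0.19, edgeR adjusted p 0.0232), a call that ended without Control replicate 3 (-0.49) or miR-497-5p-RE replicate 2 (-0.60) or 3 (-0.59).

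Of 10 genes for NK cell ligands, 7 were tested in RNA-seq, and 2 rose and 3 fell at 72 h, against 27.9% and 29.6% of all genes. MICA (-0.65 ± 0.09, edgeR adjusted p 3.69e-08) and MICB (-0.47 ± 0.09, edgeR adjusted p 2.49e-05), both ligands of NKG2D, fell, while ULBP2 (0.71 ± 0.20, edgeR adjusted p 0.00199) and CLEC2D (1.18 ± 0.34, edgeR adjusted p 0.00289) rose. None was called at 12 h in RNA-seq by edgeR or DESeq2, with 1 at an unadjusted p under 0.05. Over all genes edgeR called 7.25% higher and 5.3% lower there. In the adenosine pathway around NT5E, 8 of 11 genes were tested in RNA-seq, and at 72 h none rose and 5 fell, against 27.9% and 29.6% of all genes. The transporter gene SLC29A1 (-0.74 ± 0.09, edgeR adjusted p 1.47e-09), the receptor ADORA1 (-0.68 ± 0.11, edgeR adjusted p 9.6e-07), the transporter SLC29A2 (-0.66 ± 0.19, edgeR adjusted p 0.0023) and adenosine deaminase ADA (-0.27 ± 0.07, edgeR adjusted p 0.000498) were lower. ADORA1 was lower in the pull-down at 72 h too (-1.03 ± 0.19, edgeR adjusted p 0.000231). Of 11 NF-kB and AP-1 family genes and related regulators, 3 rose and 5 fell at 72 h, against 27.9% and 29.6% of all genes. MYC was 42.2 ± 2.74 CPM in miR-497-5p-RE and 84.9 ± 1.71 CPM in Control (-1.01 ± 0.05, edgeR adjusted p 3.04e-23), and FOSL1 was also lower (-0.69 ± 0.03, edgeR adjusted p 5.66e-24). The NF-kB inhibitor TNFAIP3 (0.79 ± 0.06, edgeR adjusted p 2.07e-15) and HIF1A (0.60 ± 0.06, edgeR adjusted p 3.2e-12) rose. RELB was higher at 12 h (0.27 ± 0.07, edgeR adjusted p 0.00885), a call that ended without miR-497-5p-RE replicate 1 (0.18), and its pull-down change at 72 h exceeded its RNA-seq change (0.66 ± 0.13, edgeR adjusted p 0.00159).

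**Figure D5:**
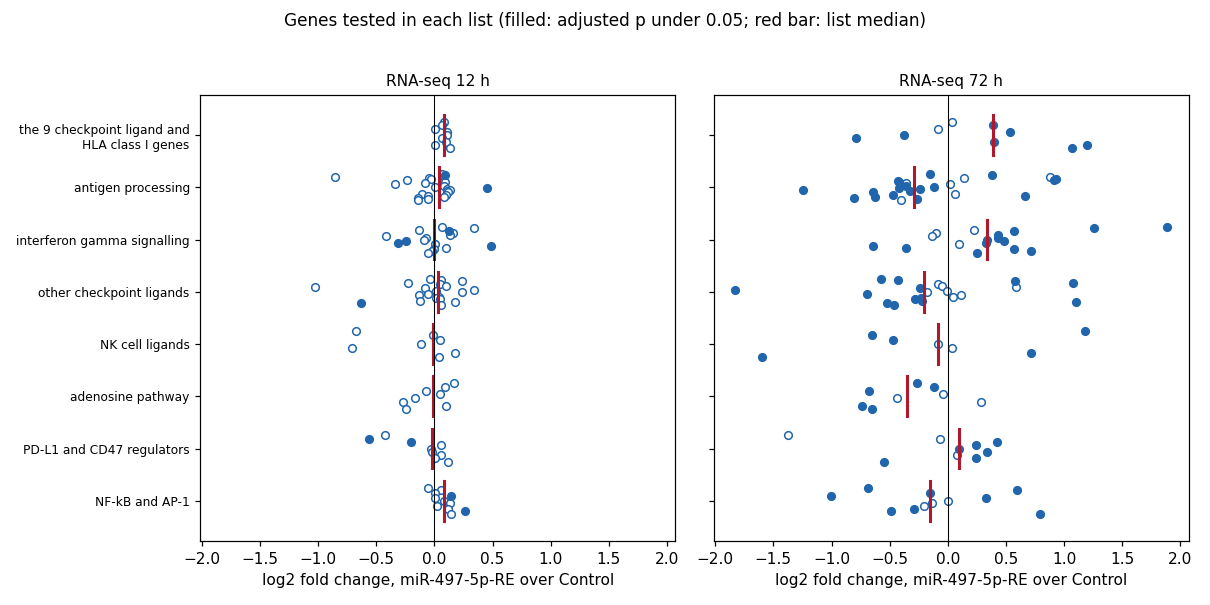
Log2 fold changes (miR-497-5p-RE over Control) in RNA-seq at 12 and 72 h of the tested genes of each list, 1 point per gene, filled where the adjusted p was under 0.05, with the list median as a red bar. At 72 h the median was 0.39 for the 9 genes, -0.29 for antigen processing and 0.34 for interferon gamma signalling.

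HLA-B and HLA-C moved together, and their promoters, from 250 bases before to 50 bases after the RefSeq start (GRCh38.p14), are shown with those of B2M, which was not called, and CD274, which was higher. RefSeq promoters were matched for 7 of the 9 genes, and not for HLA-E and PDCD1LG2. Capitals mark motifs found on either strand, chosen after these promoters had been seen: a longer and a shorter interferon-response type motif, which differ in 1 base of length, an NF-kB type motif, the CRE-like word TGACG, and CCAAT, the box of that name.
HLA-B (chr6:31357130-31357429, minus strand): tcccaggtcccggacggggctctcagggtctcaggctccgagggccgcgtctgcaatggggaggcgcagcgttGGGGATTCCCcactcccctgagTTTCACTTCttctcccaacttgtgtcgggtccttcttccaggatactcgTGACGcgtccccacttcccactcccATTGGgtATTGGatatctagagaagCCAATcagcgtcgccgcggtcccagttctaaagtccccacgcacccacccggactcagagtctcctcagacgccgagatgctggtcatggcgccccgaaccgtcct
HLA-C (chr6:31272043-31272342, minus strand): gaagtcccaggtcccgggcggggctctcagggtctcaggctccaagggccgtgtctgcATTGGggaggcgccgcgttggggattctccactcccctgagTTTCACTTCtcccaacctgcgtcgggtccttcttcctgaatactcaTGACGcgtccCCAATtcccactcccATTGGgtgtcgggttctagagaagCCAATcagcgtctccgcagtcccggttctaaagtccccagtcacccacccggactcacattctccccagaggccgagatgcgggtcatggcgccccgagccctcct
B2M (chr15:44711267-44711566, plus strand): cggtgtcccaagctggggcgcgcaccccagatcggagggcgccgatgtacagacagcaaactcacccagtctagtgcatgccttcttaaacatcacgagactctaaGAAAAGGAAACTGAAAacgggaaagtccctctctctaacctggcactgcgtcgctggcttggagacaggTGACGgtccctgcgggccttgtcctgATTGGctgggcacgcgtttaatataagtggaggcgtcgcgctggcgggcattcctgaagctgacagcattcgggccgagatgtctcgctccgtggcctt
CD274 (chr9:5450292-5450591, plus strand): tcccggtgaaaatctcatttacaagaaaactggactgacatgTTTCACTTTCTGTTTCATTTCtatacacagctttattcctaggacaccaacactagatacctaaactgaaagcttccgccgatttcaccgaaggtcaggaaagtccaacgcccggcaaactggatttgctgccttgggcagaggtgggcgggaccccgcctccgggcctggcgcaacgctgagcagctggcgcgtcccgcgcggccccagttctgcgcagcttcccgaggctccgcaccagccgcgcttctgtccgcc
Aligned end to end, the HLA-B and HLA-C promoters shared 88.5% of bases, against 49.4% for HLA-B with B2M. All 4 held an interferon-response type motif: HLA-B and HLA-C held the shorter, B2M 2 overlapping copies of the longer, and CD274 2 of the longer and 1 of the shorter that overlap in 1 block. The matched promoters of CD47 and NT5E, which were higher at 72 h, and of CD276, which was not called, held neither form. Of 35116 RefSeq promoters of the same length, 3.57% held the longer motif and 7.66% the shorter. The NF-kB type motif, in 0.906% of promoters, was found in HLA-B alone of the 7 matched. TGACG, in 24.6% of promoters, was found in HLA-B, HLA-C, B2M, CD47 and NT5E, and CCAAT, in 34.6%, in HLA-B, HLA-C, B2M and CD276. A match describes letters, not a bound factor.

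Genes with the most similar profile over the 12 RNA-seq libraries were listed for each of the 9, among 10604 other genes averaging 5 CPM or more, by Pearson's r of log2 CPM. The libraries share 4 groups, so r mostly reads those groups' means and carries no test. HLA-C went with SDC1, PRPF19 and SCAMP3 (r = 0.999 each), HLA-B with CCDC86 (0.999), PEPD (0.998) and LAPTM4B (0.998), and B2M with COPS3 (0.999), SERPINB8 (0.998) and DPM1 (0.998). CD276 went with LRP10 (0.997), GALNT14 (0.997) and NGRN (0.996), HLA-E with WBP2 (0.991), ANXA1 (0.990) and ATP6V1C1 (0.989), and NT5E with CAPZA1 (0.992), SRP72 (0.990) and SPOCK1 (0.990). CD47 went with GLIPR1 (0.991), PSG5 (0.988) and GPX8 (0.988), PDCD1LG2 with EIF3D (0.965), KRT34 (0.963) and FOLR3 (0.962), and CD274 with GDAP1 (0.941), NUFIP1 (0.940) and C10orf88 (0.929). Within the set, HLA-B and HLA-C had r = 0.992, NT5E and HLA-E 0.971 and PDCD1LG2 and CD47 0.895, while CD47 and HLA-C had -0.03.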

How the data were processed

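RNA-seq and pull-down libraries of 24 samples were analysed. Per the series' design text and the submitters' processing notes, paired-end reads were trimmed with Trimmomatic 0.36, mapped to GRCh38 with STAR 2.5.2b and counted in exons with featureCounts (Subread 1.5.2), uniquely mapped reads only. The deposited values are raw counts per gene made by the authors, and strand was not given in the sources used here. Of 57500 identifiers, 98.1% have a symbol. Counts were fitted with edgeR 4.0.16 (R 4.3.3), TMM scaling, filterByExpr and robust quasi-likelihood tests, in 4 fits: the 12 RNA-seq libraries, the 12 pull-down libraries, and both assays at 12 h and at 72 h. Adjusted p-values (Benjamini-Hochberg) cover all genes of a fit, with calls at 0.05. SE is the log2 fold change divided by the root of F. CPM use the TMM-scaled totals of each assay, except the summed CPM of the marker lists, which use unscaled library totals. DESeq2 and the other settings are compared in the closing section. Fits were tested on simulated data. The 9 genes, the gene lists and the named-gene rule were chosen with earlier results of these data known. Genes named from the lists were up to 4 per list, ranked by adjusted p in RNA-seq at 72 h, plus the called gene ranked first in each other comparison; likeness names 3 genes per member. Replicate numbers were not used to pair libraries in the reported fits. Whether same-numbered RNA-seq and pull-down libraries came from the same culture was not tested. RPKM were computed from CPM and the deposited gene length. The labels do not give separate cultures.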

Additional observations from a re-analysis of the deposited data

Results flagged for a closer look

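For 6 of the 9 genes the RNA-seq change at 72 h differed from that at 12 h by a test of the difference itself (edgeR's quasi-likelihood test, Benjamini-Hochberg adjustment over all genes). Over all genes this test called 22.5% higher and 26.2% lower. The log2 fold change at 72 h exceeded that at 12 h by 1.19 for NT5E, 0.93 for PDCD1LG2, 0.43 for CD47 and 0.30 for HLA-E. It was below that at 12 h for HLA-C (-0.85) and HLA-B (-0.48). The 2 times also differ in harvest and in the squamous transcripts of the 12 h libraries, whose part was not tested.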

How the results depend on the processing

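The 8 counts of called genes among the 9 were recomputed with DESeq2 size factors, library totals, no filter on low counts, DESeq2, a replicate block, only the libraries compared, and each replicate left out. The RNA-seq 72 h count (7) ran from 6 to 9, the RNA-seq time difference (6) from 6 to 7, the pull-down 72 h count (3) from 2 to 3, and the pull-down 12 h and the 12 h between-assay counts stayed at 0. The RNA-seq 12 h count, 0 as reported, was 2 with DESeq2 and 1 with the replicate block, and 0 to 2 with a replicate left out. The pull-down time difference, 0 as reported, was 1 with DESeq2 size factors, library totals, no filter or the replicate block, 2 with DESeq2, and 0 to 1 with a replicate left out. The 72 h between-assay count, 2 as reported (HLA-B and CD47), was 0 with no filter and 0 with the replicate block, and 0 to 3 with a replicate left out. Of 1041 recomputed gene-level values of the 9, 995 stayed on the same side of the threshold, though some that were not called changed sign, 22 lost a call and 23 gained one. B2M in RNA-seq at 72 h turned and was called under library totals (-0.075). Of recomputed values of the named genes of the other lists, 816 kept their call and 37 lost it, and of those lists' counts 711 stayed within 1.5 times and 101 did not. Apart from the cases named, the cause was not tested. Under library totals the median of all genes moved to 0.13 (12 h) and 0.14 (72 h) in the between-assay fits, against 0.01 and 0.00, and the pull-down time difference gave 854 higher and 1407 lower, against 1038 and 1096. The 12 h between-assay fit gave 168 higher and 61 lower over all genes, against 367 and 33 with library totals and 127 and 116 with DESeq2 size factors and 392 and 582 with DESeq2. In the replicate-block check, deviations of same-numbered libraries of the 2 mimics correlated at 0.139, -0.051 and 0.168 in RNA-seq at 12 h. Elsewhere they correlated between -0.131 and 0.136. Differently numbered libraries of the 2 mimics in RNA-seq at 12 h correlated between -0.255 and 0.166. This check compared the mimics within each assay and time, and with 3 libraries per group it cannot settle pairing by number. Pairing of same-numbered RNA-seq and pull-down libraries was not tested, and the reported between-assay fits did not pair them. CD274 and PDCD1LG2 rested on 2 to 81 counts per library in the pull-down at 72 h, where the share of depth in their wide intervals was not tested.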
